A study of Mus musculus with 12 samples.

Results

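Liver RNA of progeroid knock-in mice was compared with that of wild-type mice when both were fed a diet poor in methionine, on 6 of the 12 arrays of the series. It was selected by the sample names, KI_MR replicates 1 to 3 and WT_MR replicates 1 to 3, and not by any measured value. The knock-in mice (KI) were homozygous for the Lmna G609G allele (Lmna G609G/G609G) and the wild-type mice (WT) came, like them, from crosses of heterozygotes. All were male C57BL/6N, received the methionine-restricted diet (MR) from 7 weeks of age, and were killed at 110 days after 6 hours without food. The other 6 arrays, WT_CD and KI_CD, came from mice of the same genotypes, sex, strain and age on a control diet (CD), and enter here to estimate the spread and to ask where the genotype effect differed between diets. The allele is carried in every tissue of these mice, not in the liver alone. The labels do not say whether each array came from a separate animal, so the p-values measure the spread between these samples.

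The G609G change creates a cryptic splice site in the lamin A message, and the truncated, farnesylated product, progerin, stays at the nuclear envelope. It is the mouse counterpart of the change that causes most cases of Hutchinson-Gilford progeria, a premature ageing syndrome in people. Restriction of dietary methionine is known in rodent liver to activate the amino acid response through ATF4, to raise Fgf21, and to change the enzymes that make and oxidise lipids.

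Levels are log2 of the deposited intensity, array values are given in the order of replicates 1, 2 and 3, and differences are KI_MR minus WT_MR on the log2 scale, with the standard error (SE) of limma's fit over all 12 arrays. A gene is said to have risen or fallen only where limma's p, adjusted by Benjamini-Hochberg over all 19938 genes, lay under 0.05. The median intensity of an array ranged from 82 to 90 units and the number of arrays limits the precision. KI_CD replicate 1 stood apart from the rest, with a mean correlation across genes of 0.986 with its own group against 0.989 to 0.994 for the other arrays. Asns, asparagine synthetase and a standard amino acid response gene, lay between 11.63 and 12.10 in all 6 restricted arrays and between 8.57 and 11.11 in the control-diet arrays.

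Lmna came first as the altered gene. Its level was 7.63, 7.55 and 7.45 in WT_MR and 8.02, 7.75 and 7.78 in KI_MR. The groups did not overlap, but the difference of 0.31 ± 0.13 missed the threshold (limma adjusted p = 0.337). The probe set reads the whole gene and does not separate the lamin A and progerin messages, so it is no check of the genotypes. Of 16 nuclear lamina and envelope genes, 10 lay above 0 and 0 passed, with a median of 0.10 (0.04 without KI_MR replicate 1 and 0.05 without WT_MR replicate 2). The largest differences there were in Sun2, a linker between lamina and cytoskeleton, at -0.47, and in Lmna itself. Zmpste24, the protease that matures prelamin A, was at 0.18 (adjusted p = 0.388), at 0.09 without WT_MR replicate 2, and at -0.03 in its other probe set.

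Under methionine restriction 94 of 19938 genes differed by genotype, a share of 0.471%. Of these 52 rose (0.261%) and 42 fell (0.211%), and none of the 94 had overlapping groups, against 16.3% of all genes without overlap. Passing the threshold with 3 arrays per group nearly requires separate groups, so the lack of overlap only restates the calls. The falls were the larger changes. Their median was -0.84 against 0.57 for the rises, and 13 of the 20 genes that changed at least 2-fold were falls. The count depended on which arrays were used: without KI_MR replicate 3 or without WT_MR replicate 2 only 3 genes passed, namely Rbm3, Aldh1a1 and Cyp2f2, and these were also the only genes that passed in all 12 fits that left out an array. It was 12 without WT_MR replicate 1, 21 without KI_MR replicate 1, 30 without WT_CD replicate 2, 50 without WT_CD replicate 1, 57 without KI_CD replicate 2, 157 without WT_MR replicate 3 and 226 without KI_CD replicate 1. Centring each array on its median gave 26 rises and 32 falls, so that rises made up 44.8% of calls in place of 55.3%. All 94 kept their sign in every one of these settings.

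**Figure D1:**
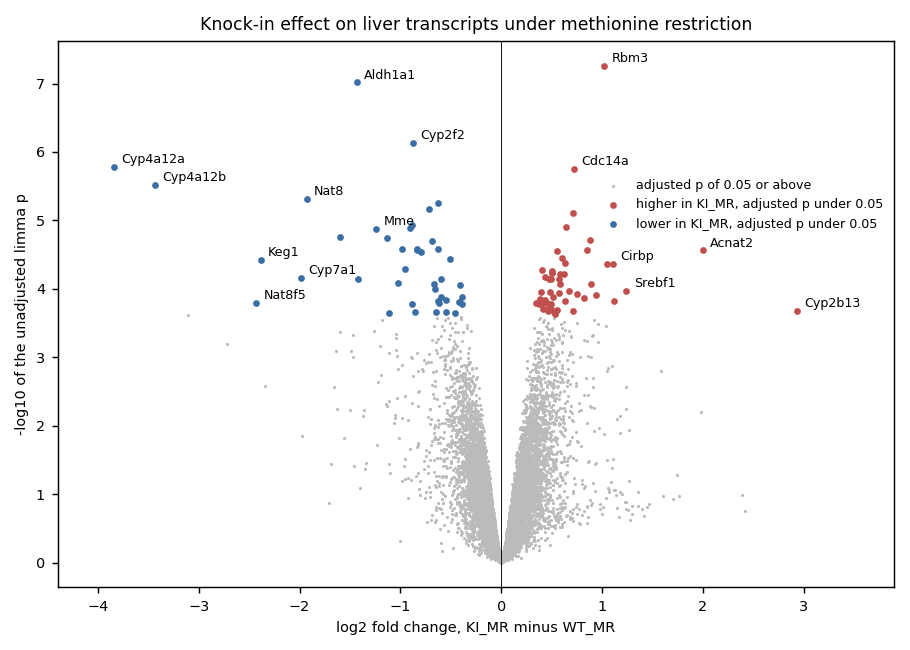
Each point is 1 of 19938 genes. The x axis is the log2 fold change of KI_MR minus WT_MR and the y axis the -log10 of the unadjusted limma p; red marks the 52 genes that rose and blue the 42 that fell. The largest changes, Cyp4a12a and Cyp4a12b, lie at the far left, while Rbm3 and Aldh1a1 have the smallest p-values.

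The deepest losses were in the male-biased cytochromes Cyp4a12a and Cyp4a12b, fatty acid omega-hydroxylases that make 20-HETE from arachidonic acid. Cyp4a12a was at 9.51, 10.19 and 10.31 in WT_MR and at 7.26, 5.46 and 5.75 in KI_MR, and fell by 3.85 ± 0.42 (limma adjusted p = 0.00701). Every knock-in array lay at least 2.25 under every wild-type array. Cyp4a12b, its close paralog, fell by 3.44 ± 0.40 (adjusted p = 0.0101), and their probe sets may share signal. Both lost the call only without KI_MR replicate 3 (adjusted p = 0.0519 and 0.0638) and without WT_MR replicate 2 (0.0617 each).

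Liver in mice differs strongly between the sexes, because the pulses of growth hormone in males and its steadier level in females set separate gene programmes. Of 16 measured male-biased genes 15 lay below 0, with 2 falls (the Cyp4a12 pair) and a median of -0.31, against a median of -0.045 over all genes, of which 62.3% lay below 0. The 2 falls were 12.5% of the list, against 0.211% of all genes. Elovl3, a fatty acid elongase and a classic male-biased transcript, was at 7.42, 8.57 and 9.77 in WT_MR and at 5.46, 5.98 and 5.0 in KI_MR. Its wild-type arrays were all higher but spread widely, and the difference of -3.11 ± 0.59 had a limma adjusted p of 0.0510. Its knock-in mean lay under the lower quartile of gene levels, so the change is given as at least 7.64-fold. The bile acid and steroid carrier Slco1a1 was at 8.72, 7.35 and 9.54 in WT_MR and at 7.08, 7.15 and 6.25 in KI_MR (-1.71 ± 1.06, adjusted p = 0.476). Replicate 2 was the low wild-type array, and without it the median of the list was -0.51.

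Female-biased genes were mixed. Of 20 measured female-biased genes 12 lay above 0, 2 rose (10%, against 0.261% of all genes) and the median was 0.30. Cyp2b13, a cytochrome normally abundant in females, was at 7.55, 8.42 and 6.87 in WT_MR and at 11.10, 9.68 and 10.84 in KI_MR. It rose by 2.93 ± 0.54 (limma adjusted p = 0.0486), the largest rise of all. The call was lost in 9 of the 12 fits that left out an array, with an adjusted p of up to 0.212 without KI_MR replicate 3, and Cyp2b13 has close relatives in its own family with which its probes may share signal. Cux2, a transcription factor that represses male-biased genes in female liver, was at 7.94, 7.64 and 7.55 in WT_MR and at 8.90, 8.25 and 8.64 in KI_MR, and rose by 0.89 ± 0.15 (adjusted p = 0.0339). It too was lost in 9 fits, with an adjusted p of up to 0.167. Cyp2b9, of the same family, was at 13.13, 13.22 and 12.94 in WT_MR and at 13.36, 13.37 and 13.56 in KI_MR. Its groups lay next to each other without overlap, and the difference was 0.34 ± 0.47 (adjusted p = 0.744).

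The growth hormone and IGF axis gave no call. Of 15 measured genes 0 passed, 9 lay below 0, and the median was -0.00 (0.09 without WT_MR replicate 2 and -0.07 without KI_MR replicate 3). Igf1 was at 11.99, 12.07 and 12.19 in WT_MR and at 11.93, 12.09 and 12.22 in KI_MR. Bcl6, a repressor of female-biased genes, was at 9.29, 7.00 and 9.87 in WT_MR and at 6.98, 7.69 and 7.12 in KI_MR (-1.46 ± 0.62, adjusted p = 0.323). Here again WT_MR replicate 2 lay with the knock-in arrays, and the difference was -2.32 without it and -0.88 without WT_MR replicate 3.

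**Figure D2:**
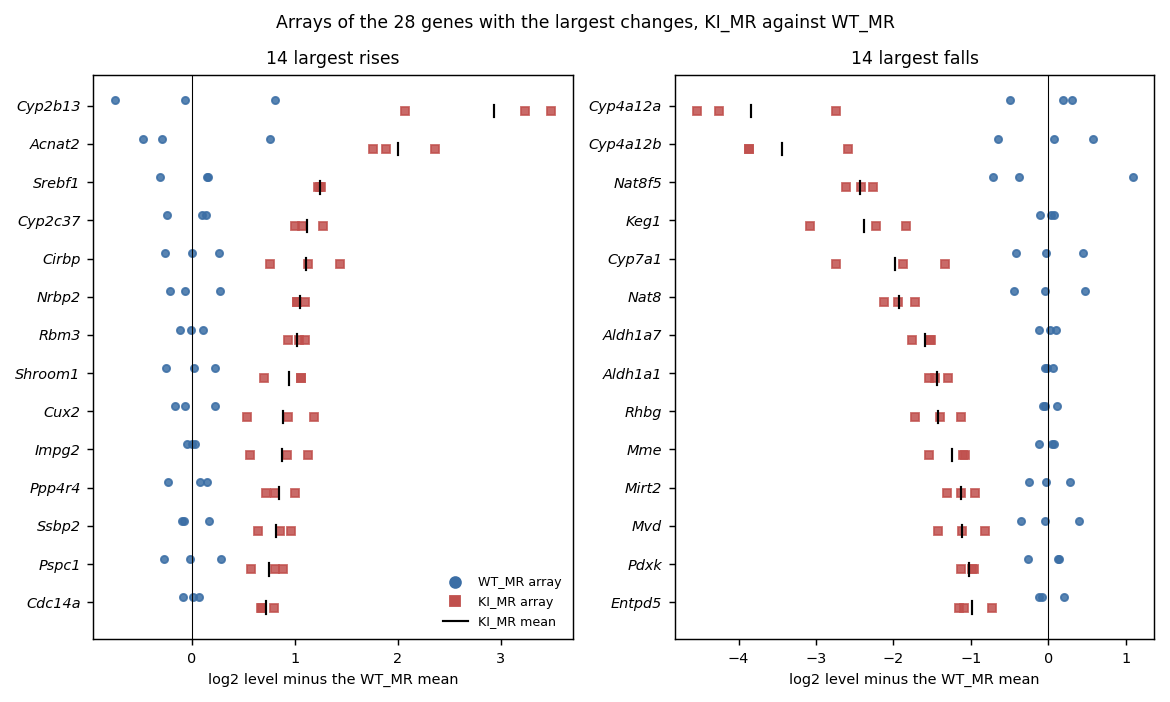
The 14 largest rises (left) and the 14 largest falls (right) among genes that passed. The x axis is the log2 level of each array minus the WT_MR mean; circles are the 3 WT_MR arrays, squares the 3 KI_MR arrays and short bars the KI_MR mean. The naming rule kept only genes without overlapping groups, and Cyp2b13 and Nat8f5 have the widest scatter among their wild-type arrays.

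In bile acid synthesis the enzyme of the first step fell. Cyp7a1, the rate-limiting enzyme of the classical pathway from cholesterol to bile acids, was at 12.54, 12.07 and 11.68 in WT_MR and at 10.22, 9.35 and 10.77 in KI_MR. The highest knock-in array lay 0.91 below the lowest wild-type array. It fell by 1.98 ± 0.32 (limma adjusted p = 0.0314), to 25.3% of the wild-type intensity. The call was lost in 6 of the 12 fits with an array left out, with an adjusted p of up to 0.122 (without WT_MR replicate 2), while the difference ranged from -2.31 to -1.60.

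The next decision in the pathway is made by Cyp8b1, the sterol 12-alpha-hydroxylase that commits bile acids to cholic acid. Its level was 9.58, 10.39 and 10.10 in WT_MR and 6.32, 9.19 and 7.52 in KI_MR. The groups did not overlap, but KI_MR replicate 1 lay 2.87 under replicate 2, and the difference of -2.35 ± 0.61 had a limma adjusted p of 0.115. Cyp2c70, which makes the muricholic acids of rodents, was at 0.67 ± 0.15 (adjusted p = 0.0812). Over the 16 bile acid synthesis genes 10 lay below 0, and the median was -0.09 (-0.15 without KI_MR replicate 2). Only Cyp7a1 passed, 6.25% of the list against 0.471% of all genes. Cyp27a1, of the alternative route, was at 0.01 and Slc27a5, of conjugation, at -0.06.

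Bile acid transport and its receptors had 0 of 22 genes past the threshold, with 15 above 0 and a median of 0.06 (0.18 without KI_MR replicate 2 and 0.03 without WT_MR replicate 3). Abcc4, an export pump of the blood side of the hepatocyte, came closest, at 8.93, 8.51 and 8.30 in WT_MR and at 7.79, 7.21 and 7.59 in KI_MR (-1.05 ± 0.21, limma adjusted p = 0.0632). Slco1a4, an uptake carrier, was at 0.97 ± 0.32 (adjusted p = 0.201). Nr0b2, the bile-acid-induced repressor of Cyp7a1 also known as SHP, was at 9.50, 9.51 and 10.37 in WT_MR and at 11.12, 9.50 and 10.70 in KI_MR. These Nr0b2 arrays overlapped (0.65 ± 0.49, adjusted p = 0.549).

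Most cholesterol synthesis genes lay below 0 and a single one passed. Hepatocytes make cholesterol from acetyl-CoA through mevalonate, squalene and lanosterol, and SREBP2, made from Srebf2, switches the genes of the route on when sterols are short. Of 19 measured genes of 23 listed, 17 lay below 0. An unadjusted limma p under 0.05 with the knock-in lower was seen in 15, against 1513 of all 19938 genes. The median was -0.84, with a range of -1.02 to -0.73 when each array was left out. No overlap between groups, with the knock-in lower, was seen in 14 of the 19, against 8.82% of all genes. Only Mvd passed, a share of 5.26% of the list against 0.471% of all genes. The members of such a list share regulators, so they are not independent points.

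Mvd, mevalonate diphosphate decarboxylase, was at 8.33, 9.08 and 8.65 in WT_MR and at 7.87, 7.58 and 7.27 in KI_MR. It fell by 1.12 ± 0.21 (limma adjusted p = 0.0490), and lost its call in 10 of the 12 fits that left out an array, with an adjusted p of up to 0.220. Idi1, the isomerase of the next step, had the largest difference of the list, at 11.49, 11.40 and 10.56 in WT_MR and at 10.04, 9.47 and 9.52 in KI_MR (-1.47 ± 0.33, adjusted p = 0.0815). For both enzymes all wild-type arrays were higher, with WT_MR replicate 3 the nearest to the knock-in for Idi1 and replicate 1 for Mvd. Hmgcs1, the cytosolic synthase that opens the route, was at 11.66, 11.69 and 11.15 against 10.49, 10.23 and 10.21 (-1.19 ± 0.29, adjusted p = 0.102).

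Further along, Nsdhl, a dehydrogenase of the demethylation steps after lanosterol, was at 11.45, 11.50 and 11.09 in WT_MR and at 10.26, 10.31 and 9.92 in KI_MR (-1.19 ± 0.23, limma adjusted p = 0.0546). Its wild-type arrays all lay above its knock-in arrays by at least 0.78. Squalene epoxidase (Sqle) was at -1.05, Cyp51 at -1.01, Tm7sf2 at -1.03, Msmo1 at -0.99 and Dhcr7, the last reductase, at -0.98. None of these 5 passed, and they were chosen for naming after their values were seen. Of the regulators, Srebf2 was at 0.00 ± 0.11 and Insig1, which holds SREBP in the endoplasmic reticulum, at 0.08 ± 0.28.

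Because these genes lay low together, the 250 bases before the start sites of Hmgcs1, Mvd, Idi1 and Nsdhl are shown, from RefSeq on GRCm38.p6 and read 5′ to 3′ in the direction of the gene. The windows are chr13:119690101-119690350 (plus strand) for Hmgcs1, chr8:122443423-122443672 (minus strand) for Mvd, chr13:8885356-8885605 (plus strand) for Idi1 and chrX:72918271-72918520 (plus strand) for Nsdhl. Capitals mark the box CCAAT on either strand (read as ATTGG on the other), the site of NF-Y, a usual partner of SREBP2, and the sterol element CACCCCAC.
Hmgcs1: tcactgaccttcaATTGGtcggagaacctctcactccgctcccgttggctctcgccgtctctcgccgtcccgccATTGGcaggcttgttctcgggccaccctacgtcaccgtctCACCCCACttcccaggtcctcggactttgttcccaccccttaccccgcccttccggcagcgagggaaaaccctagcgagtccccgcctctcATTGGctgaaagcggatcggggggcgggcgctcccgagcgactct
Mvd: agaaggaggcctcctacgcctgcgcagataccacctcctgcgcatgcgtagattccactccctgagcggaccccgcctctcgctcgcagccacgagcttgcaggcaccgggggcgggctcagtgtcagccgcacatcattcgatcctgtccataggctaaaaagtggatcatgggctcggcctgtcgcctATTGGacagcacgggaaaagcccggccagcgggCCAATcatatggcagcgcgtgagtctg
Idi1: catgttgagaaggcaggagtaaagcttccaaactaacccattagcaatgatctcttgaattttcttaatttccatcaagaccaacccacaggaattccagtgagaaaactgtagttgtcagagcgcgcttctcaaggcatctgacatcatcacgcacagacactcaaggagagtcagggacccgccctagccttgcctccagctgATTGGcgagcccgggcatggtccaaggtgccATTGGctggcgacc
Nsdhl: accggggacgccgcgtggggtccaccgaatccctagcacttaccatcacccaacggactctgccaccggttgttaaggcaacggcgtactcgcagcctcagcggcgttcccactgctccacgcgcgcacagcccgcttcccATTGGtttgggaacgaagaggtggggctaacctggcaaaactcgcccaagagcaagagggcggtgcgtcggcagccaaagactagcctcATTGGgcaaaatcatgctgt
Hmgcs1 held 3 CCAAT boxes and 1 CACCCCAC, and each of the other 3 windows held 2 CCAAT boxes. Over the 19 windows of the 16 sterol genes with an entry, 84.2% held CCAAT, against 33.8% of all 32851 windows of this length. All 16 genes had a window with the box, among them Srebf2 and Insig1, which did not lie low. The box therefore does not separate the low members from the flat ones. CACCCCAC was in 1 of the 19 windows and in 2.58% of all. A match says only that these letters stand there.

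**Figure D3:**
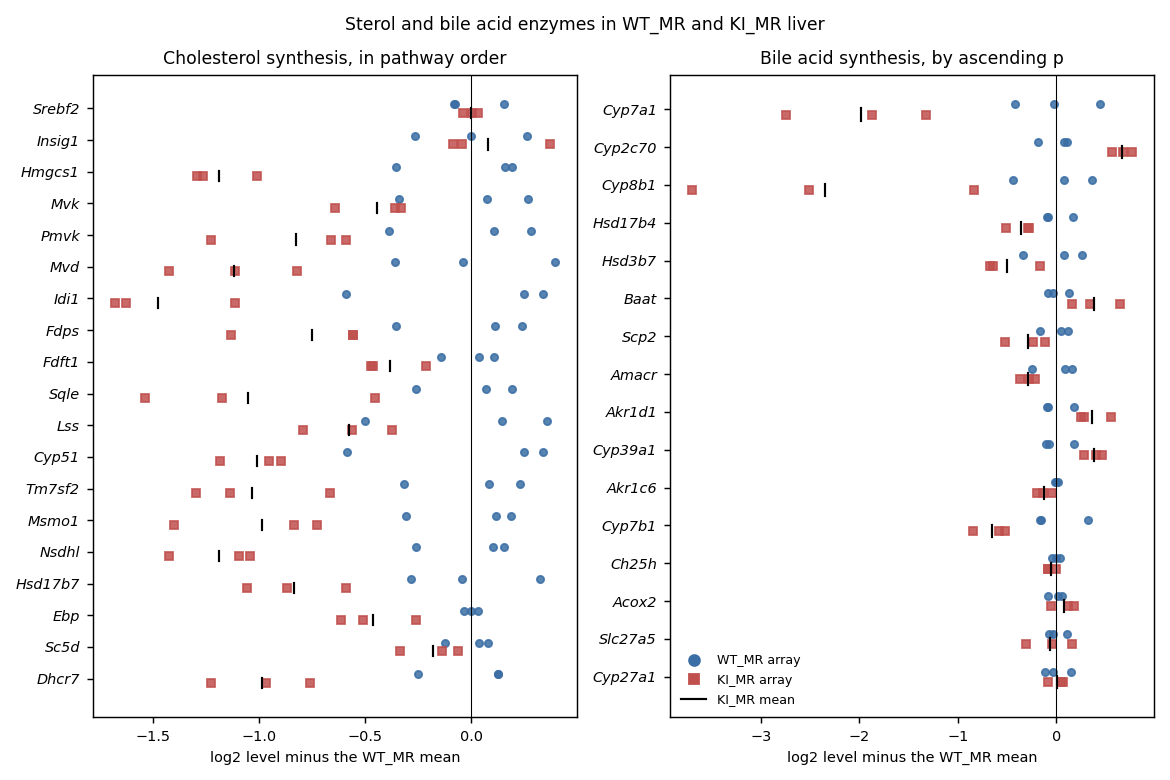
Cholesterol synthesis genes in pathway order with the regulators Srebf2 and Insig1 on top (left), and bile acid synthesis genes by ascending p (right). The x axis is the log2 level of each array minus the WT_MR mean; circles are WT_MR arrays, squares KI_MR arrays and short bars the KI_MR mean. The enzymes from Hmgcs1 to Dhcr7 lie mostly left of 0, whereas on the right Cyp7a1 and Cyp8b1 stand apart from the rest of their list.

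Srebf1 rose while these enzymes lay low. This gene, whose product SREBP1 drives fatty acid synthesis, was at 9.26, 9.25 and 8.80 in WT_MR and at 10.36, 10.33 and 10.35 in KI_MR. The knock-in arrays spanned 0.03, and the rise was 1.24 ± 0.21 (limma adjusted p = 0.0401). The call was lost in 7 of the 12 fits with an array left out (adjusted p up to 0.172, without KI_MR replicate 3). Among its usual targets the signs were mixed. Of 19 fatty acid synthesis genes 11 lay above 0, and the median was 0.13 (-0.04 without WT_MR replicate 3 and 0.03 without KI_MR replicate 1). Srebf1 alone passed, 5.26% of the list against 0.471% of all genes. Fasn was at 0.36, Scd1 at 0.13, Acaca at 0.15 and Acly at -0.28.

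Fatty acid oxidation gave no call, though nearly all of its genes lay below 0. Of 24 measured oxidation genes and PPARA targets, 23 lay below 0, 12 had an unadjusted p under 0.05, 11 had no overlap with the knock-in lower, and 0 passed. Over all genes 14.1% had such a p in either direction and 8.82% had no overlap with the knock-in lower. The median was -0.41, and -0.19 without WT_MR replicate 2. Cpt2, which releases acyl-carnitines inside the mitochondrion, was at 10.75, 11.13 and 10.89 in WT_MR and at 10.38, 10.38 and 10.32 in KI_MR (-0.56 ± 0.14, limma adjusted p = 0.0997). Fgf21, the liver hormone that methionine restriction is known to raise, was at 7.81, 8.81 and 7.76 in WT_MR and at 6.87, 6.44 and 6.11 in KI_MR. All Fgf21 arrays of the knock-in were lower, but the difference of -1.65 ± 0.43 did not pass (adjusted p = 0.115). Ppara itself was at -0.39 and the trifunctional protein subunit Hadha at -0.40. Lipid uptake genes had 0 of 22 past the threshold and a median of -0.03 (between -0.11 without WT_MR replicate 3 and -0.01 without WT_MR replicate 2). The fatty acid carrier Cd36 among them was at 10.66, 10.78 and 10.62 in WT_MR and at 8.85, 9.37 and 8.94 in KI_MR (-1.63 ± 0.48, adjusted p = 0.160). Cd36 passed in 1 of the 12 fits that left out an array (limma adjusted p = 6.6e-04).

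A pair of aldehyde dehydrogenases fell. Aldh1a1, which oxidises retinaldehyde to retinoic acid, was at 12.74, 12.82 and 12.71 in WT_MR and at 11.28, 11.46 and 11.21 in KI_MR. The 3 arrays of each genotype lay close together, over 0.11 in WT_MR and 0.25 in KI_MR, and it fell by 1.43 ± 0.12 (limma adjusted p = 9.57e-04; at most 0.0132 with any array left out). Its neighbour in sequence, Aldh1a7, fell by 1.60 ± 0.22 (adjusted p = 0.0222), with the call lost in 4 fits (up to 0.100, without KI_MR replicate 3). The pair is close enough that the probe sets may read each other. Both belong to a list of 18 measured xenobiotic response genes, of which 2 fell, 1 rose and 11 lay below 0, with a median of -0.12. The calls were 16.7% of the list, against 0.471% of all genes, and the 2 falls were this pair. The rise was Cyp2c37, a cytochrome that oxidises arachidonic acid, from 11.65, 11.70 and 11.31 in WT_MR to 12.62, 12.55 and 12.83 in KI_MR (1.12 ± 0.20, adjusted p = 0.0426, lost in 9 fits). Cyp2c29, of the same subfamily, was at 0.69 (adjusted p = 0.0662).

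Single enzymes of conjugation fell or rose. Nat8, which acetylates cysteine conjugates in the last step of mercapturic acid formation, was at 8.23, 8.64 and 9.15 in WT_MR and at 6.73, 6.95 and 6.55 in KI_MR. It fell by 1.93 ± 0.24 (limma adjusted p = 0.0137), and only leaving out KI_MR replicate 3 (0.0662) or WT_MR replicate 2 (0.0691) ended the call. Its relative Nat8f5 fell by at least 4.79-fold, from 7.41, 7.07 and 8.87 to 5.52, 5.36 and 5.17, where the knock-in mean lay under the lower quartile of gene levels (adjusted p = 0.0426, lost in 9 fits). Keg1, of the glycine N-acyltransferase family, was at 11.09, 11.24 and 11.28 in WT_MR and at 8.97, 8.12 and 9.36 in KI_MR. It fell by 2.38 ± 0.36 (adjusted p = 0.0261), and the call was lost in 4 fits. In the opposite direction Acnat2, a peroxisomal enzyme that joins fatty acids to amino acids, went from 7.31, 7.50 and 8.55 in WT_MR to 9.68, 9.54 and 10.15 in KI_MR. It rose by 2.0 ± 0.29 (adjusted p = 0.0222, lost in 4 fits).

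Of 20 measured glutathione enzymes and NRF2 targets, 19 lay below 0 and 0 passed, with a median of -0.27 (-0.45 without KI_MR replicate 1). The transferase Gstm6 was at 10.91, 10.64 and 10.93 in WT_MR and at 10.32, 9.87 and 9.62 in KI_MR (-0.89 ± 0.20, limma adjusted p = 0.0815). Gstm2 stood at -0.89 and Ugdh, which makes UDP-glucuronic acid, at -1.03. The Gstm genes are close paralogs whose probe sets may share signal, so they are not taken as independent.

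Position along the liver lobule can be read from zonation markers. Rhbg, an ammonium carrier of pericentral hepatocytes, was at 8.29, 8.14 and 8.12 in WT_MR and at 6.78, 7.06 and 6.46 in KI_MR, and fell by 1.42 ± 0.23 (limma adjusted p = 0.0314, lost in 5 fits). Of 10 pericentral markers 7 lay below 0, with a median of -0.32 and Rhbg as the only call (10%, against 0.471% of all genes). Glul and Cyp2e1, the defining pericentral genes, were at -0.24 and 0.11. On the periportal side Cyp2f2 was at 12.94, 13.13 and 13.16 in WT_MR and at 12.12, 12.21 and 12.27 in KI_MR, and fell by 0.87 ± 0.09 (adjusted p = 0.00486; at most 0.0482 with any array left out). It was the only call among 7 periportal markers (14.3%). Of these 4 lay below 0, with a median of -0.01 (-0.08 without KI_MR replicate 1 and 0.06 without KI_MR replicate 2). In whole liver, fewer cells of a zone and less RNA per cell cannot be told apart.

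Both cold-inducible RNA-binding proteins rose. Rbm3 was at 10.61, 10.38 and 10.49 in WT_MR and at 11.59, 11.43 and 11.53 in KI_MR, and rose by 1.02 ± 0.08 (limma adjusted p = 9.57e-04; at most 0.0109 with any array left out). The other 2 probe sets of Rbm3 gave 1.14 and 1.07. Cirbp, the second protein of this kind, was at 7.77, 8.04 and 8.30 in WT_MR and at 8.80, 9.48 and 9.17 in KI_MR, and rose by 1.11 ± 0.17 (adjusted p = 0.0271, lost in 4 fits, up to 0.126). Both proteins increase when body temperature drops, and the labels give no body temperature. The 250 bases before the first listed start of Cirbp lie at chr10:80167589-80167838 (plus strand, GRCm38.p6, RefSeq, 5′ to 3′), with the mild-cold response element TCCCCGCC, searched on both strands, in capitals.
Cirbp: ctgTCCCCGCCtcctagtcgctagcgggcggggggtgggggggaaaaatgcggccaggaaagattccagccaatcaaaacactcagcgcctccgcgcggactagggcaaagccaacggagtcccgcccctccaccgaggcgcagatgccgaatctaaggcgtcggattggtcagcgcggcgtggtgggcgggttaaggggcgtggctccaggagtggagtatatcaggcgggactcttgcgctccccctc
The element occurs in 4.64% of all windows of this length, among them that of Hmgcs1 above, where it was left in lower case.

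Heat shock genes gave no call. Of 24 measured chaperones of the cytosol, mitochondria and endoplasmic reticulum, 18 lay below 0 and 0 passed, with a median of -0.14 (-0.21 without WT_MR replicate 2). Hspd1, the mitochondrial chaperonin HSP60, was at 11.55, 11.56 and 11.55 in WT_MR and at 11.06, 11.07 and 11.14 in KI_MR (-0.46 ± 0.09, limma adjusted p = 0.0564). Its partner Hspe1 was at -0.55 and Hsp90aa1 at -0.75 ± 0.17 (adjusted p = 0.0884).

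The remaining large changes had varied roles. Among the falls, Mme (neprilysin, a peptidase that cleaves small peptides at the cell surface) was at -1.24, the long noncoding RNA Mirt2 at -1.13, Pdxk (pyridoxal kinase, which makes the vitamin B6 cofactor) at -1.03 and Entpd5 (a nucleoside diphosphatase of the endoplasmic reticulum) at -0.99, with limma adjusted p-values from 0.0190 to 0.0339. Among the rises, the pseudokinase Nrbp2 was at 1.05, the actin-binding protein Shroom1 at 0.94, Impg2 at 0.88, the phosphatase subunit Ppp4r4 at 0.85, Ssbp2 at 0.82, the paraspeckle protein Pspc1 at 0.76 and the phosphatase Cdc14a at 0.72. Cdc14a lost its call in only 2 fits (0.0519 without KI_MR replicate 3 and 0.0617 without WT_MR replicate 2). The other 10 lost theirs in 3 (Mme, Mirt2 and Entpd5), 4 (Nrbp2, Impg2 and Ppp4r4), 7 (Pdxk), 8 (Ssbp2), 9 (Shroom1) and 10 fits (Pspc1).

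Genes of methionine metabolism and of the ATF4 response gave no call between the genotypes. Of 18 measured genes of the methionine cycle, transsulfuration and taurine synthesis 12 lay below 0 and 0 passed, with a median of -0.07 (-0.14 without KI_MR replicate 2 and -0.01 without KI_MR replicate 3). Bhmt, which remakes methionine from betaine, was at 12.74, 12.45 and 12.50 in WT_MR and at 10.66, 12.29 and 11.32 in KI_MR (-1.14 ± 0.33, limma adjusted p = 0.150), and KI_MR replicate 2 lay close to the wild type. Gamt, a large user of methyl groups in creatine synthesis, was at -0.52 ± 0.12 (adjusted p = 0.0788). Among 25 ATF4 target genes 17 lay above 0 and 0 passed, with a median of 0.06 (0.00 without KI_MR replicate 1 and 0.15 without KI_MR replicate 2). Asns was at 12.10, 11.63 and 11.79 in WT_MR and at 11.97, 11.99 and 11.98 in KI_MR, a difference of 0.14 ± 0.48 (0.27 without WT_MR replicate 1 and 0.03 without WT_MR replicate 2).

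Genes tied to senescence and inflammation gave 0 calls in p53 targets (21 genes, median 0.02; -0.03 without WT_MR replicate 3), acute phase genes (26 genes, median 0.13; 0.27 without WT_MR replicate 3 and 0.02 without WT_MR replicate 2), interferon-stimulated genes (18 genes, 16 below 0, median -0.23; -0.07 without WT_MR replicate 3) and NF-kB targets (16 genes, median -0.07; -0.00 without WT_MR replicate 3). The p53 list holds 25 genes, of which 21 were measured. Cdkn1a was not among the measured genes, so the 0 calls do not cover it. Cdkn2a was at 6.78, 6.78 and 6.61 in WT_MR and at 6.64, 6.61 and 6.49 in KI_MR (-0.14 ± 0.07, limma adjusted p = 0.405). Of 24 cell cycle genes 22 lay below 0 and 0 passed, with a median of -0.19. Ccnd1, cyclin D1, was at 10.36, 11.14 and 10.17 in WT_MR and at 8.70, 8.13 and 8.91 in KI_MR (-1.98 ± 0.68, adjusted p = 0.219). Complement and coagulation gave 1 rise in 29 genes (3.45%, against 0.261% of all genes). It was Masp1, a protease of the lectin pathway (0.43 ± 0.07, adjusted p = 0.0314, lost in 6 fits).

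**Figure D4:**
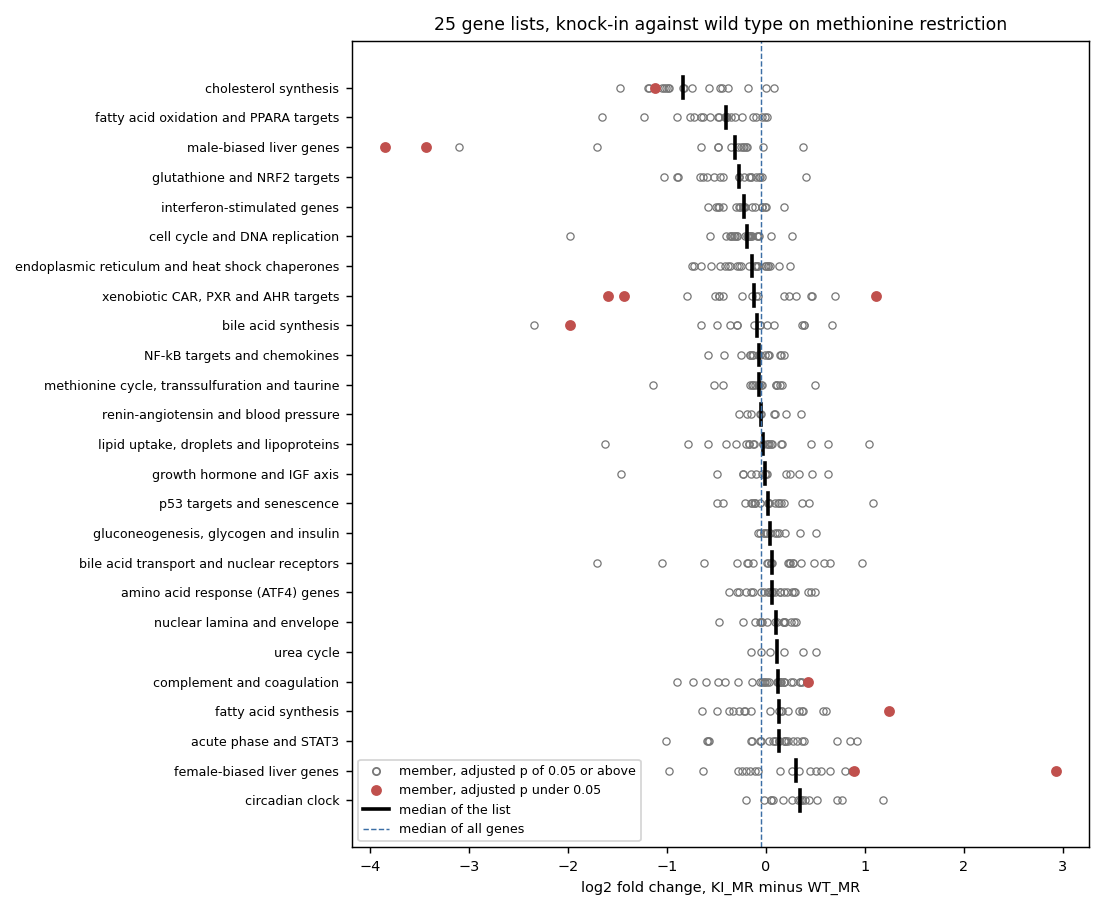
Each row is 1 of 25 gene lists, ordered by its median, and each circle a measured member at its log2 fold change of KI_MR minus WT_MR; filled red circles passed limma's adjusted threshold, black bars are list medians and the dashed line the median of all genes, -0.045. Cholesterol synthesis has the lowest median at -0.84 and the circadian clock the highest at 0.34, and filled circles are few in every list.

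The cell make-up of the samples was compared through marker lists, and its part in the results was not tested. The summed intensity of 6 hepatocyte markers was 60862 to 65182 in WT_MR and 66261 to 67488 in KI_MR, all 6 lay above 0 with a median of 0.06, and that median was -0.00 after quantile normalization. Kupffer cell markers lay below 0 in 12 of 12 (median -0.21), with sums of 8194 to 15312 and 8717 to 10331 that overlapped. That median was 0.05 without WT_MR replicate 3 and -0.40 without WT_MR replicate 2. Stellate cell markers summed to 5901 to 6490 in WT_MR and 7520 to 8290 in KI_MR without overlap, although 5 of 10 lay below 0. Desmin (Des) was at 10.12 in KI_MR replicate 2 against 6.87 to 7.20 in the other 5 arrays, and smooth muscle actin (Acta2) was at 9.44 in KI_MR replicate 3. Acta2 and decorin (Dcn) lay higher in every KI_MR array than in every WT_MR array, by at least 0.55 and 0.35. They were the 2 of 10 without overlap and with the knock-in higher, against 7.5% of all genes. With the knock-in lower 1 had no overlap, against 8.82% of all genes. Neutrophil sums (364 to 377 in WT_MR, 398 to 438 in KI_MR) and T and NK cell sums (592 to 633 and 515 to 588) did not overlap either. All 7 neutrophil markers lay above 0, with a median of 0.07, and 3 had no overlap with the knock-in higher. Of 9 T and NK cell markers 7 lay below 0, and 0 were without overlap. No marker list outside the hepatocyte zones held a call. The smallest deposited intensity of any probe set was 10, so an absent transcript would not show as 0. Members of the T and NK cell, B cell, neutrophil and adipocyte lists went down to 25, 26, 25 and 30 units. Whether such dim markers were detected was not tested.

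The control diet gives a separate look at the genotype, on arrays that this contrast does not share, although the estimate of the spread is common. Of the 94 genes, 90 had the same sign in KI_CD minus WT_CD, where 70.2% of all genes did, and 62 had no overlap there, against 19.0% of all genes. The spread behind the calls includes the control-diet arrays, so genes with a small spread there were favoured. The share over all genes is therefore not a like baseline for the 62. The effect was larger on the restricted diet in 90 of the 94, with a median size of 0.63 against 0.28. Genes chosen because they passed on one diet tend to look larger there, so this difference in size is a description. Only 4 genes passed on both diets: Acnat2, Cyp4a12a, Cyp4a12b and Rbm3. On the control diet 16 genes passed (0.0802%). Acnat2 was at 2.0 ± 0.29 under restriction and 2.03 ± 0.29 on control diet, Cyp4a12a at -3.85 and -3.81, and Rbm3 at 1.02 and 0.71.

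The test of the difference between diets itself gave 0 genes after adjustment by limma, with 824 at an unadjusted p under 0.05 (4.13%). The count was 1 without KI_CD replicate 3 or KI_MR replicate 2 and 3 without WT_CD replicate 2. Cyp7a1 had the largest difference of the 4 calls with opposite signs on the 2 diets. On the control diet it was at 10.83, 11.02 and 11.12 in WT_CD and at 11.59, 10.87 and 11.33 in KI_CD, 0.27 ± 0.32. Its interaction of -2.26 ± 0.46 had an unadjusted p of 4.25e-04 and an adjusted p of 0.652. Srebf1 was likewise flat on control diet (0.05 ± 0.21), with an interaction of 1.19 ± 0.30 (adjusted p = 0.966), and that of Aldh1a1 was -1.01 ± 0.17 (adjusted p = 0.325).

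The 3 smallest interaction p-values in each direction (predicted loci left out) belonged to genes that did not pass on the restricted diet. Aldh1a1, which did pass there, had a smaller interaction p (8.23e-05) than the leading gene of the positive direction, Serpina12 (1.14e-04). Serpina7, thyroxine-binding globulin, was at 10.95, 10.96 and 11.23 in WT_MR and at 11.37, 11.29 and 11.07 in KI_MR. On the control diet it was at 9.38, 8.73 and 9.12 in WT_CD and at 11.76, 12.05 and 11.01 in KI_CD. Its genotype effect was thus 0.20 ± 0.24 against 2.53 ± 0.24, with an interaction of -2.33 ± 0.33 (limma adjusted p = 0.293). Cyp2b9 was at 0.34 under restriction and 4.59 on control diet (interaction -4.25 ± 0.66, adjusted p = 0.293), and Slc13a5, a citrate carrier, at -0.19 and 1.07 (-1.26 ± 0.19, adjusted p = 0.293). In the other direction Serpina12, the adipokine vaspin, was at -0.28 and -2.29 (2.01 ± 0.35, adjusted p = 0.325), Slc17a8 at 0.65 and -1.07 (adjusted p = 0.650), and coagulation factor F11 at 0.34 and -0.53 (adjusted p = 0.966). Leaving out an array moved some of these restricted values by over 1.5 times: Serpina12 was at -0.14 without KI_MR replicate 3 and -0.17 without WT_MR replicate 3, F11 at 0.23 without KI_MR replicate 2, and Slc13a5 at -0.10 without KI_MR replicate 1 and -0.11 without WT_MR replicate 2.

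List medians on both diets are given as values without a test. The cholesterol synthesis median was -0.84 under restriction and -0.22 on control diet, with 17 of 19 genes below 0 on each. Male-biased genes had a median of -0.31 under restriction and -1.87 on control diet, where 16 of 16 lay below 0. The glutathione list was at -0.27 and 0.12, the cell cycle list at -0.19 and 0.16, and the fatty acid synthesis list at 0.13 and -0.41.

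**Figure D5:**
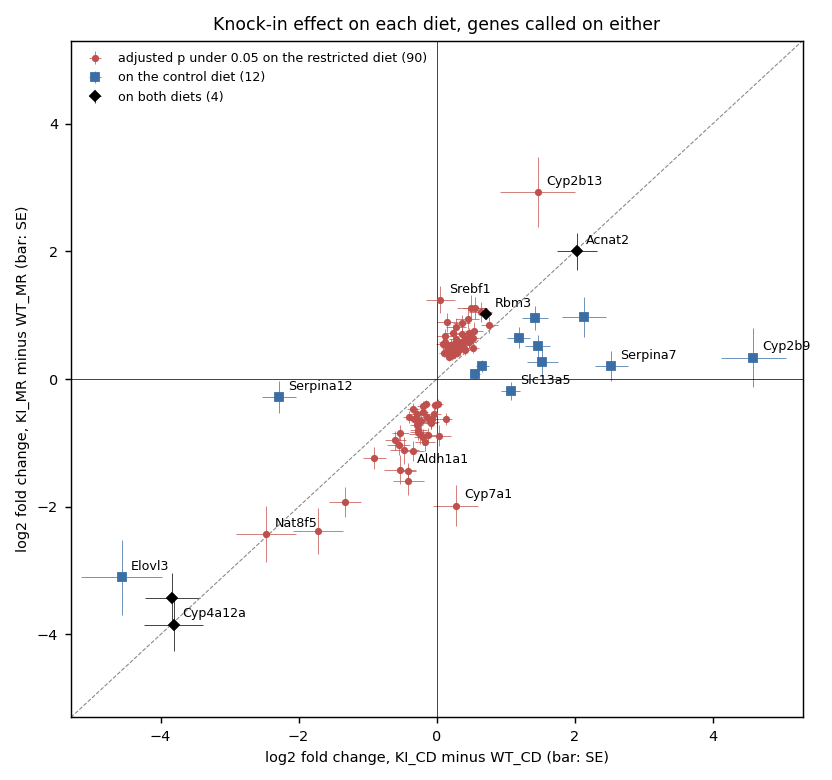
Genotype effect on the control diet (x axis, log2 fold change of KI_CD minus WT_CD) against the restricted diet (y axis, KI_MR minus WT_MR) for the genes that passed on either diet, with SE bars and a dashed line of equal effect. Red circles passed on the restricted diet alone (90), blue squares on the control diet alone (12) and black diamonds on both (4). Cyp7a1 and Srebf1 lie near 0 on the x axis, and Cyp2b9, Serpina7 and Serpina12 near 0 on the y axis.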

How the data were processed

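Total RNA of 12 liver samples was read on Affymetrix Mouse Gene 1.0 ST arrays, 3 in each group, per the labels. The authors deposited linear intensities, whole numbers from 10 to 20042, for 35512 probe sets; their background correction and scaling are not given in the sources used here, and rounding makes dim genes coarse. The deposited intensity was used as log2 with no further scaling. GEO's platform annotation gave 1 symbol for 21789 probe sets, several for 1621 and none for 12102. Each gene took its brightest probe set by the mean of the 12 arrays, which left 19938 genes. Intensities were fitted with limma 3.58.1 (R 4.3.3) as 4 group means over 12 arrays, with 8 residual and 3.14 prior degrees of freedom, two-sided tests, Benjamini-Hochberg adjustment within a contrast and a threshold of 0.05. The fit was tested on simulated data. With 3 arrays in each group an exact permutation p has a floor of 0.1, and none was used. A group whose mean lay under the lower quartile of gene levels (5.49 to 5.67 by array) gives a bound, with its dim arrays raised to that quartile.

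The members, the 25 pathway and 13 marker lists and the alternatives were chosen with earlier results of these data known. The rule names the 14 largest rises and 14 largest falls that passed without overlap, leaving out predicted loci, up to 4 members per list by smallest p, some genes of progeria, bile acids and methionine, and the 3 smallest interaction p-values each way. Other genes named were chosen after their values were seen. Lists are described by counts and medians, with no set test. Alternatives were quantile normalization, median centring, no dim genes, the mean of a gene's probe sets, the 6 compared arrays alone, a prior with trend and robust estimation, a replicate block and each array left out. Sequences and gene spans are from RefSeq (GRCm38.p6), the sequences matched by symbol and the spans by Entrez gene identifier. Sequences and figures used pandas 2.3.3, numpy 2.4.6 and matplotlib 3.10.9 in Python 3.11.15.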

Additional observations from a re-analysis of the deposited data

Results flagged for a closer look

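Outside the genes with a single symbol, 5 probe sets of the 12102 without a gene symbol passed the threshold in KI_MR minus WT_MR, 4 higher and 1 lower in the knock-in. At an unadjusted p under 0.05 there were 1263. Of the 1621 probe sets with several symbols 0 passed by limma, with 138 at an unadjusted p under 0.05. What these probe sets measure was not examined here.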

How the results depend on the processing

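The count of 94 genes (52 higher, 42 lower) moved with several settings. It was 58 with median centring (26 higher, 32 lower), 15 when the 6 compared arrays were fitted alone (6 higher, 9 lower; 2475 genes at an unadjusted p under 0.05), and 70 with the trended, robust prior (33 higher, 37 lower). The fit of 6 arrays has fewer samples from which to estimate the spread, and only 7 of its 15 genes were among the 94. Leaving out 1 array at a time gave 3 to 226 genes, 1 to 116 of them higher and 2 to 110 lower, and 0 to 3 genes for the difference between diets. Quantile normalization gave 108, leaving out the dimmest 25% of genes 89 and averaging probe sets 93. Of the 94 calls 3 held in all 12 fits with an array left out, 17 were lost in at most 3 and 41 in at least 9. Some genes short of the threshold passed in such a fit. Cd36, Hsp90aa1, Fgf21, Ccnd1 and Bhmt did so in 1 of the 12 each, with lowest limma adjusted p-values of 6.6e-04, 0.0151, 0.0206, 0.0206 and 0.0332.

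Same-numbered arrays of WT_MR and KI_MR deviated together with correlations across genes of 0.094, 0.18 and 0.16, so not every pair passed 0.1 and the labels name no shared litter or batch. With replicate number as a block 177 genes passed (102 higher, 75 lower), 90 of the 94 among them, and each of the 6 arrays correlated best with its own number, which is a hint from the data and not part of the design. Among intensities, 13.98% of gene values lay under 32 units, where a step of 1 unit is 0.044 on the log2 scale.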

Other observations

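Clock genes mostly lay above 0 without passing. Of 17 measured clock genes 15 were above 0, with a median of 0.34 (0.15 without WT_MR replicate 3) and 0 calls. Per1, a light- and hormone-induced clock gene, was at 9.33, 8.21 and 7.73 in WT_MR and at 9.45, 9.38 and 9.99 in KI_MR (1.18 ± 0.40, limma adjusted p = 0.211), and WT_MR replicate 1 lay next to the knock-in arrays. The labels give the hours of fasting and no clock time.

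Genes that rose spanned more of the genome than those that fell. The median span from start to end was 60.6 kb for the 52 rises, 16.2 kb for the 42 falls and 17.7 kb for all genes, 99.6% of which had a span. With all genes cut into 4 equal bins by span, 30 rose and 5 fell in the bin of the longest, and 3 rose and 9 fell in that of the shortest. The median difference over all genes was -0.07 in the shortest bin, -0.06 and -0.03 in the next, and -0.01 in the longest. On the control diet these medians ran from -0.05 in the shortest bin to 0.01 in the longest. The arrays did not contribute alike. As deviations from the mean of the 6 arrays, in the shortest and the longest bin, WT_MR replicate 2 had medians of 0.09 and 0.00 and KI_MR replicate 3 had -0.06 and -0.00, while WT_MR replicate 3 stood at -0.03 in both. WT_MR replicate 2 and KI_MR replicate 3 are the arrays without which 3 genes passed. Among long genes that rose, chosen after their values were seen, were regulators of chromatin and transcription: Chd8 at 0.37, Kdm3b at 0.39, Med23 at 0.50 and Mllt3 at 0.72. These spans were compared as a description, and neither RNA quality nor probe placement was measured.

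Single calls of other roles, again chosen after their values were seen, were Terc, the RNA of telomerase, which fell by 0.86 ± 0.16 (limma adjusted p = 0.0486), Psmb5, a catalytic proteasome subunit, which fell by 0.67 ± 0.11 (adjusted p = 0.0339), and Parp2, a poly(ADP-ribose) polymerase of DNA repair, which rose by 0.58 ± 0.10 (adjusted p = 0.0339). Terc was at 9.53, 9.42 and 9.76 in WT_MR and at 9.05, 8.52 and 8.57 in KI_MR. Mmab, of vitamin B12 metabolism, fell by 0.91 ± 0.12 (adjusted p = 0.0190). Nos1ap rose by 0.60, but its second probe set gave -0.11.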
